A study of Mus musculus with 31 samples.

Results

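Carriers for sugars, amino acids, peptides and monocarboxylates were followed in mouse colon at day 7 post induction. They are the rows of the deposited expression table whose symbol starts with Slc1a, Slc2a, Slc3a, Slc5a, Slc6a, Slc7a, Slc15a, Slc16a, Slc36a, Slc38a or Slc43a and ends in a number, which gives 101 genes of 27623. The DHO group (n = 10 libraries) lacked both TAK1 and TRADD in intestinal epithelial cells (TAK1 IEC-KO, Tradd IEC-KO). The HO group (n = 10) lacked TAK1 in these cells (TAK1 IEC-KO), and the WT group (n = 11) carried the floxed Tak1 allele (Tak1f/f). All 3 groups were homozygous for Ripk1 D138N, which inactivates the kinase of RIPK1, the controls included. TAK1 is a kinase that passes on TNF and Toll-like receptor signals, and TRADD is an adaptor of the TNF receptor; the study asked about the role of TRADD in the colitis that follows loss of epithelial TAK1. Which Cre line and which inducing agent were used, and how old the mice were, is not given in the sources used here. Nothing in the labels ties a library to an animal of its own, so p-values speak only for the spread between libraries, which may be technical in part.

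The gut lining takes up nutrients through carriers in its luminal membrane and hands them to the blood through others in its basolateral membrane. Sodium-coupled carriers (Slc5a, Slc6a, Slc1a) draw solutes in against their gradients, driven by a sodium gradient that the sodium pump maintains. Proton-coupled ones (Slc15a, Slc36a1) are driven by a proton gradient. Facilitative carriers (Slc43a and most of Slc2a) let glucose or amino acids move down their own gradients. Slc16a1 moves lactate and butyrate together with protons. The Slc7a light chains exchange amino acids and, for many of them, reach the membrane bound to a heavy chain of the Slc3a family. In the colon the short-chain fatty acid butyrate, made by bacteria, is a main fuel of the epithelium and enters through Slc5a8 and Slc16a1.

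The libraries held 30800000 to 40400000 fragments. HO 2, DHO 8 and DHO 9 stood apart from their groups in cell type markers. HO 2 had a mean log2(FPKM + 0.5) of 8.23 over 14 epithelial markers, within the WT range of 7.95 to 8.40, whereas the other HO libraries had 0.305 to 5.57. DHO 8 and DHO 9 had epithelial means of 7.68 and 8.27 and neutrophil means of 6.95 and 4.73 over 7 markers, whereas the other DHO libraries had neutrophil means of at most 1.01. The libraries also divided into 17 low and 14 high in the noncoding RNA Gm15564 (at most 0.0736 and at least 6.27 FPKM), with all 3 genotypes on both sides. The labels name no batch, and DHO 8 and DHO 9 are both in the high set. The sets differed in far more than this RNA. With genotype in the fit, 7317 of 12812 genes and 20 of 55 tested carriers differed between them (limma, adjusted p under 0.05). The low set held 38600000 to 40400000 fragments and the high set 30800000 to 39300000. A lower level of a gene in whole colon cannot tell fewer cells of a type from less RNA per cell.

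Of the 101 carriers, 55 reached 1 FPKM (fragments scaled to gene length and to the size of the library) in at least 10 libraries and were tested. The other 46 were too low, and 36 of them stayed under 1 FPKM in every library. The summed FPKM of all 101 carriers was 588 to 907 in DHO (median 772), 584 to 859 in HO (median 705) and 808 to 1071 in WT (median 952). The sums overlapped between the groups, and their make-up differed. In DHO the largest mean shares were those of Slc6a8, the creatine carrier (15.1%), and Slc6a14, a carrier of neutral and cationic amino acids (12.2%). In HO they were those of Slc2a1, the glucose carrier GLUT1 (11.9%), Slc15a3, an endolysosomal histidine and peptide carrier (10.5%), and Slc16a3, the lactate exporter MCT4 (8.24%). In WT Slc6a14 (16.5%) and Slc6a8 (13.6%) led.

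**Figure D1:**
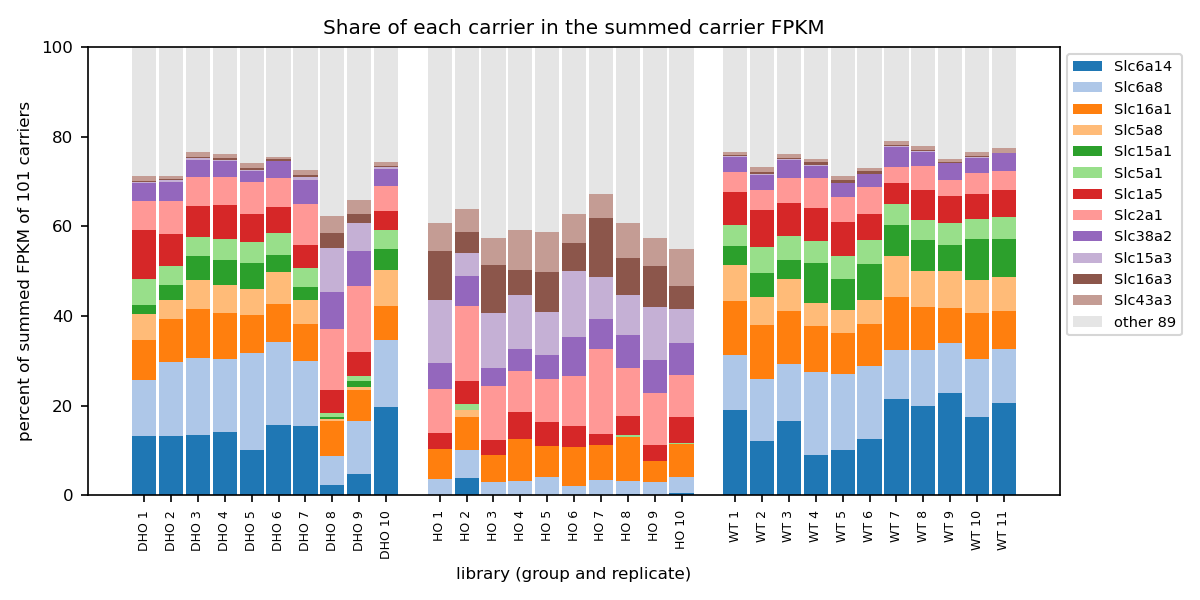
Percent of the summed FPKM of the 101 carriers taken by 12 carriers and by the other 89, one bar per library, in DHO, HO and WT. Slc6a14, Slc6a8, Slc5a8, Slc15a1 and Slc5a1 fill the lower part of the WT bars and shrink in HO, where Slc2a1, Slc15a3, Slc16a3 and Slc43a3 take more; DHO 8 and DHO 9 differ from the other DHO bars.

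Loss of epithelial TAK1 (HO against WT) divided the carriers into those that fell and those that rose. Of the 55 tested, 24 were higher and 22 lower in HO, and 9 did not pass an adjusted p of 0.05 (limma, Benjamini-Hochberg over 12812 genes). These counts are 43.6% and 40.0% of the tested carriers, beside 33% of all tested genes called higher and 38.4% called lower, so the counts stand near the background. The size of the changes stood further from it, since 20 carriers (36.4%) had an absolute log2 fold change of at least 2, beside 15.9% of all genes. The median log2 fold change of the carriers was -0.13 and that of all genes -0.06. Every tested Slc5a member was lower, every Slc43a member was higher, and the Slc16a family divided into 4 higher and 6 lower.

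Loss of TRADD on top of TAK1 (DHO against HO) was accompanied by 25 higher and 21 lower carriers of the 55 (limma, adjusted p of 0.05). That is 45.5% and 38.2% of the carriers, beside 39% of all genes called higher and 29.7% called lower. Absolute log2 fold changes of at least 2 were seen for 17 carriers (30.9%), beside 12.8% of all genes. DHO against WT gave 6 higher and 9 lower carriers, or 10.9% and 16.4%, beside 12.5% and 8.7% of all genes. All 15 overlapped between the groups. The share of all genes that overlapped was not computed, so the overlap cannot be read as a trait of the carriers. The comparisons share libraries, so their fold changes are not independent of each other and are given side by side.

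**Figure D2:**
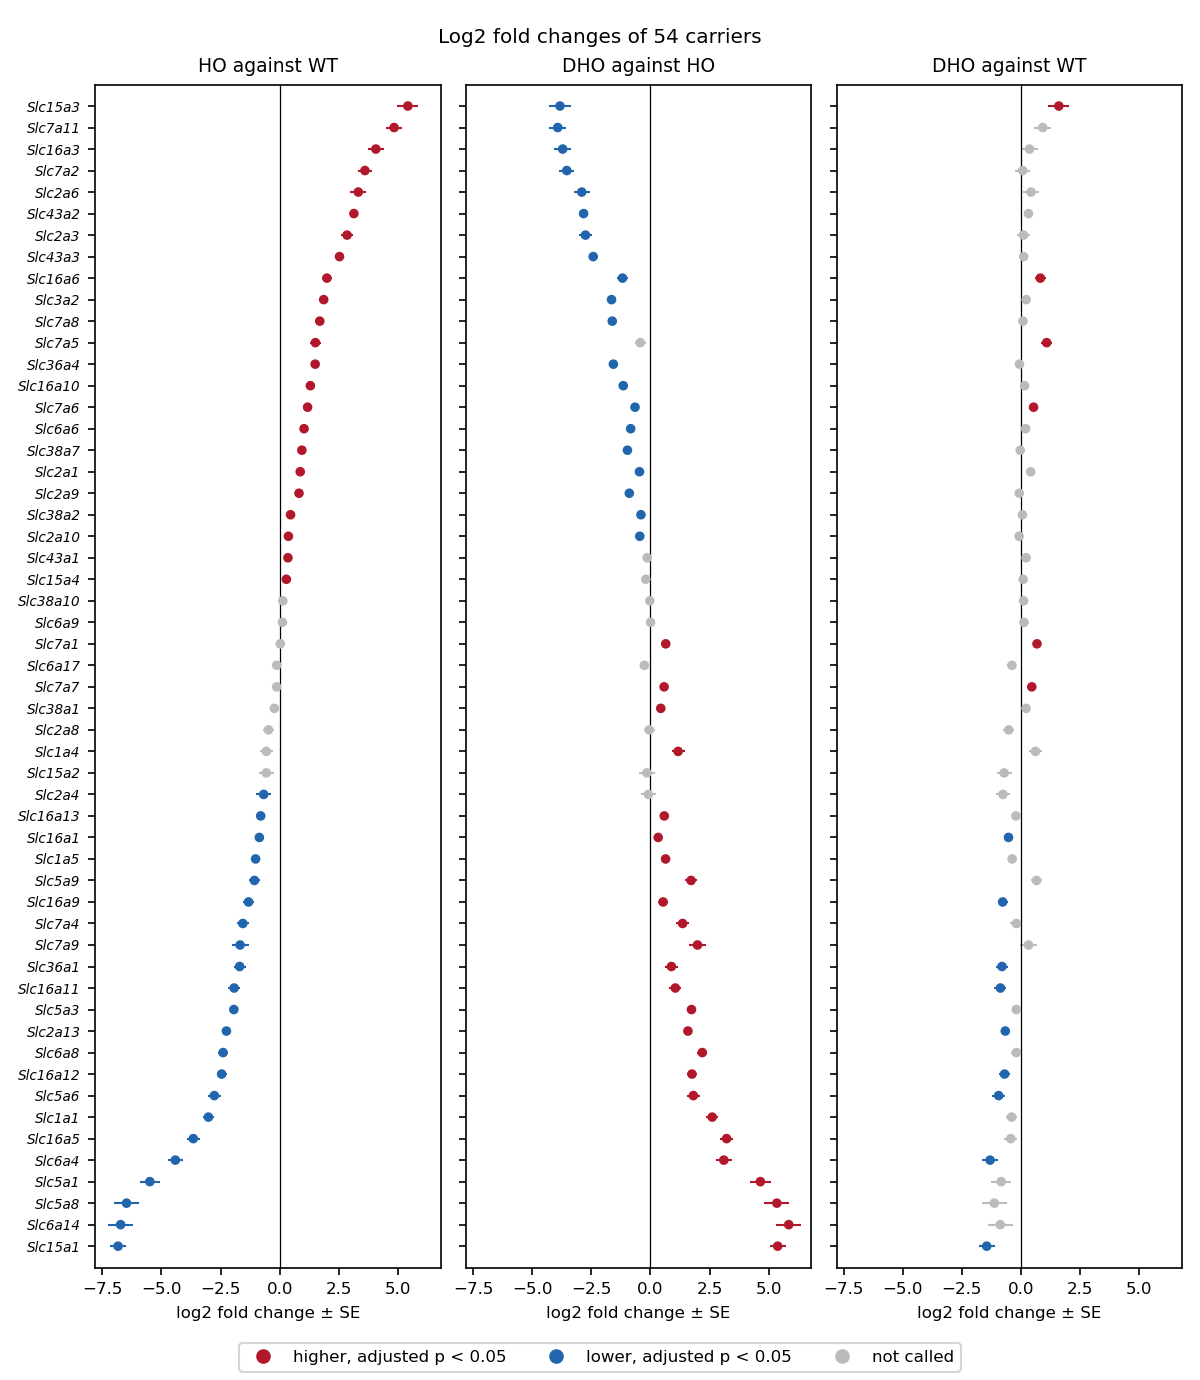
Log2 fold change (± SE) of 54 of the 55 tested carriers on the log2(FPKM + 0.5) scale in HO against WT, DHO against HO and DHO against WT, ordered by the HO against WT value. Red marks carriers higher and blue those lower at an adjusted p under 0.05; values run from -6.83 (Slc15a1) to 5.42 (Slc15a3) in HO against WT and stay between -1.46 and 1.59 in DHO against WT.

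The same mixture of cell types moved with these groups. The 14 epithelial markers were all lower in HO than in WT (median log2 fold change -5.26) and all higher in DHO than in HO (5.32); their summed FPKM was 5507 to 11778 in DHO, 15.5 to 8320 in HO and 7993 to 10767 in WT. The 7 neutrophil markers were all higher in HO than in WT, with sums of 0.614 to 3923 FPKM in DHO, 5967 to 50466 FPKM in HO and 0.616 to 8.84 FPKM in WT. The 7 macrophage markers were likewise all higher in HO, with sums of 425 to 2057 FPKM in DHO, 1733 to 5281 FPKM in HO and 211 to 548 FPKM in WT. No epithelial, neutrophil or macrophage marker was at 0 in every library, and the part of cell type makeup in the differences between carriers was not tested.

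All 5 tested members of the sodium-coupled Slc5a family fell in HO. Slc5a8 (SMCT1, chromosome 10: 88885992 to 88929515 in GRCm38), which takes up butyrate and lactate with sodium, had 3.0 to 67.1 FPKM in DHO (median 46.7), 0 to 13.3 FPKM in HO (median 0.0237) and 46.0 to 87.7 FPKM in WT (median 69.9). HO lay below WT in every library, while DHO overlapped both. The log2 fold change was -6.48 ± 0.52 (SE) in HO against WT and 5.34 ± 0.53 in DHO against HO (limma adjusted p = 2.2e-12 and 3.3e-10). Slc5a1 (SGLT1, chromosome 5: 33104219 to 33162699), the sodium-glucose carrier, had 5.65 to 43.4 FPKM in DHO (median 36.1), 0.0129 to 9.81 FPKM in HO (median 0.151) and 41.1 to 54.0 FPKM in WT (median 45.7). Here too HO and WT did not overlap, and only DHO 8 and DHO 9 lay under the highest HO library. The log2 fold changes of Slc5a1 were -5.49 ± 0.43 and 4.65 ± 0.44 (limma adjusted p = 1.6e-12 and 1.6e-10).

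The other tested Slc5a members were lower in HO and higher again in DHO by smaller amounts. Slc5a6, the carrier of biotin and pantothenate, had medians of 6.35 FPKM in DHO, 1.06 FPKM in HO and 9.23 FPKM in WT. Slc5a3, the sodium-myo-inositol carrier, had medians of 4.64 FPKM in DHO, 0.863 FPKM in HO and 4.52 FPKM in WT. The log2 fold changes in HO against WT were -2.77 ± 0.27 for Slc5a6 and -1.94 ± 0.15 for Slc5a3 (limma adjusted p = 1e-10 and 2.1e-12). Slc5a9 changed by -1.07 in HO against WT and by 1.72 in DHO against HO. Slc5a7, the choline carrier of cholinergic neurons, stayed between 0.338 and 1.38 FPKM in all groups and was not tested.

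The peptide carriers of the Slc15a family moved in opposite directions. Slc15a1 (PEPT1, chromosome 14: 121459621 to 121505254), the proton-coupled carrier of dipeptides and tripeptides in the luminal membrane, had 2.84 to 52.5 FPKM in DHO (median 29), 0 to 0.395 FPKM in HO (median 0.00467) and 34.9 to 95.3 FPKM in WT (median 64.7). It was listed at 0 in 5 of the 10 HO libraries, and HO overlapped neither DHO nor WT. The log2 fold change was -6.83 ± 0.33 in HO against WT and 5.38 ± 0.34 in DHO against HO (limma adjusted p = 7.9e-17 and 4.7e-14), and with HO near 0 its size is set by the 0.5 FPKM added before the logarithm. Slc15a3 (chromosome 19: 10842544 to 10857915), which carries histidine and peptides across endolysosomal membranes of myeloid cells, had 1.73 to 63.0 FPKM in DHO (median 2.29), 41.7 to 105 FPKM in HO (median 79.2) and 0.605 to 2.73 FPKM in WT (median 1.10). All HO libraries were above all WT libraries, and DHO 8, at 63.0 FPKM, fell among the HO libraries. Slc15a3 changed by 5.42 ± 0.45 in HO against WT and -3.82 ± 0.46 in DHO against HO (limma adjusted p = 4.7e-12 and 1.3e-08).

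The ratio of Slc15a3 to Slc15a1 differed between the groups and within DHO. The highest DHO ratios, 22.2 and 4.38, were those of DHO 8 and DHO 9, and the next was 0.226 in DHO 7. The ratio was 0.0358 to 22.2 in DHO (median 0.0893) and 0.00678 to 0.0592 in WT (median 0.0170). In the 5 HO libraries in which Slc15a1 was above 0 it was 106 to 8960. Slc15a4, the other endolysosomal member, was almost level, with medians of 3.05 FPKM in DHO, 3.49 FPKM in HO and 2.78 FPKM in WT. Its rise in HO against WT (0.28 ± 0.11, limma adjusted p = 0.030) was lost on leaving out any one of 9 libraries. Slc15a2, a renal and neural peptide carrier, passed in no comparison (-0.57 ± 0.32 in HO against WT).

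**Figure D3:**
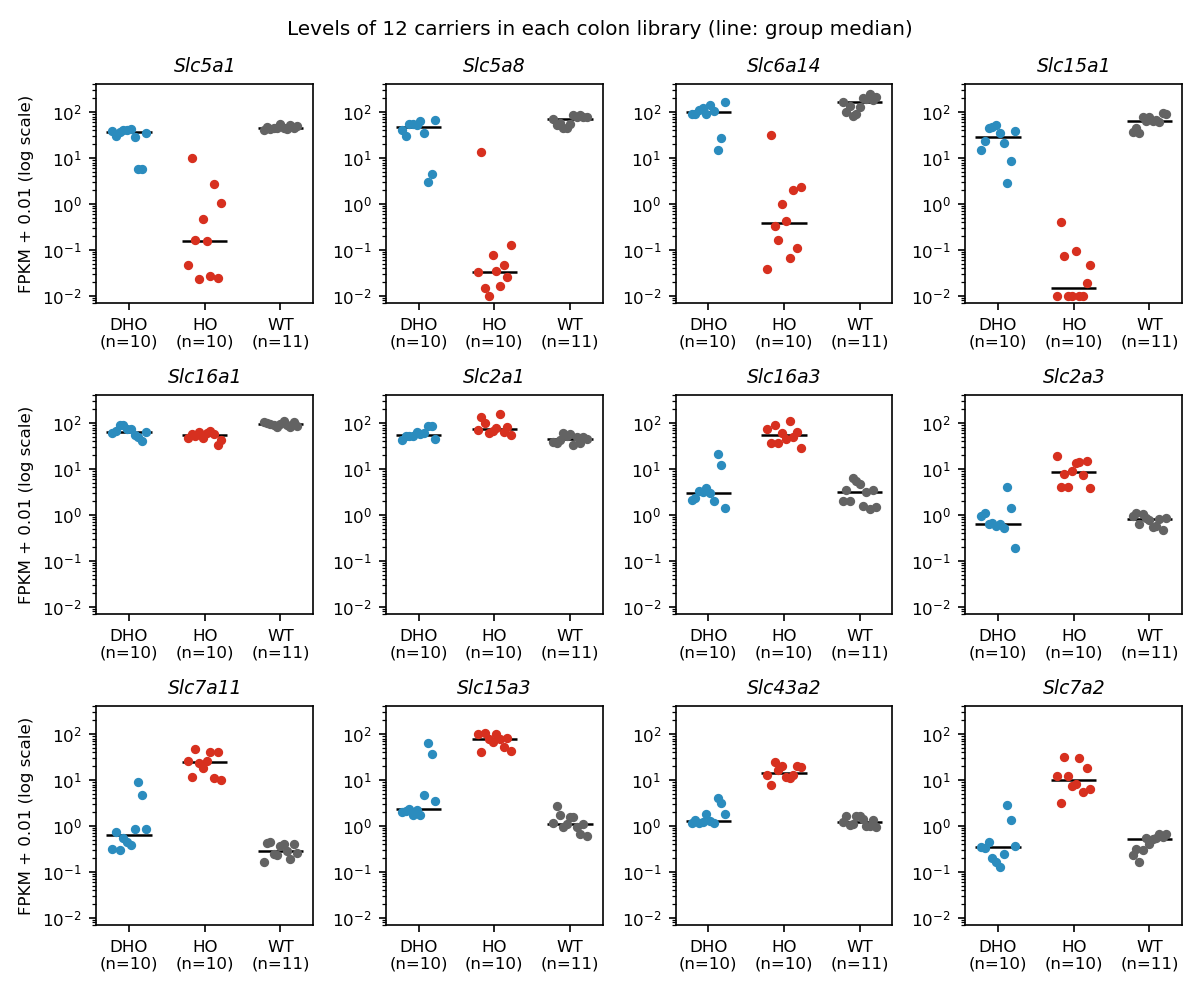
FPKM + 0.01 on a log scale in each library for 12 carriers, with DHO, HO and WT from left to right and a line at each group median. Slc5a1, Slc5a8, Slc6a14 and Slc15a1 are low in HO, and Slc16a3, Slc2a3, Slc7a11, Slc15a3, Slc43a2 and Slc7a2 are high in HO. Slc16a1 and Slc2a1 change by less than the others, with log2 fold changes of -0.86 and 0.87 in HO against WT.

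Among the Slc6a carriers, which couple amino acids, amines and creatine to sodium and chloride, Slc6a14, Slc6a8 and Slc6a4 fell in HO. Slc6a14 (chromosome X: 21714900 to 21742358) had 15.1 to 165 FPKM in DHO (median 98.9), 0.0288 to 31 FPKM in HO (median 0.377) and 81.2 to 245 FPKM in WT (median 165). HO lay below every WT library, and DHO 8 and DHO 9 lay below the highest HO library. Its log2 fold changes were -6.73 ± 0.52 in HO against WT and 5.85 ± 0.53 in DHO against HO (limma adjusted p = 9.4e-13 and 5.6e-11). Slc6a8, the creatine carrier, had 41.1 to 197 FPKM in DHO (median 121), 14 to 49.3 FPKM in HO (median 22.7) and 103 to 167 FPKM in WT (median 121). The DHO and WT medians of Slc6a8 were alike, and its log2 fold change in HO against WT was -2.39 ± 0.21 (limma adjusted p = 1e-11). Slc6a4, which clears serotonin into the epithelium, had 0.317 to 12 FPKM in DHO (median 7.39), 0.0234 to 0.658 FPKM in HO (median 0.0978) and 7.30 to 17.9 FPKM in WT (median 13.7). For Slc6a4 the DHO level was also below WT (log2 fold change -1.31 ± 0.33, limma adjusted p = 0.0068).

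The taurine carrier Slc6a6 rose in HO, with 9.34 to 34.3 FPKM in DHO (median 15.1), 22.9 to 40.7 FPKM in HO (median 27.4) and 9.32 to 18 FPKM in WT (median 15.5). Its log2 fold changes were 1.03 ± 0.17 in HO against WT and -0.84 ± 0.17 in DHO against HO (limma adjusted p = 3.2e-06 and 9.6e-05). The glycine carrier Slc6a9 passed in no comparison, with medians of 3.36 FPKM in DHO, 3.25 FPKM in HO and 3.18 FPKM in WT. Slc6a19, the main neutral amino acid carrier of the small intestine, stayed at 0.0882 to 0.592 FPKM and was not tested, nor were 11 other Slc6a members. Slc6a19 has an annotated antisense neighbour in the table, and a strand setting for the counting is not named in the notes.

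The sodium-driven glutamate and neutral amino acid carriers of the Slc1a family were lower or unchanged by the test in HO. Slc1a1, a glutamate and aspartate carrier, had 4.45 to 14.5 FPKM in DHO (median 12.2), 0.400 to 4.09 FPKM in HO (median 0.926) and 7.93 to 20.04 FPKM in WT (median 13.8). HO lay below every library of DHO and WT, and its log2 fold changes were -3.01 ± 0.24 in HO against WT and 2.61 ± 0.25 in DHO against HO (limma adjusted p = 3e-12 and 1.8e-10). Slc1a5, the glutamine carrier ASCT2, had 31 to 77.2 FPKM in DHO (median 51.5), 20.3 to 41.6 FPKM in HO (median 30.7) and 44.5 to 69.1 FPKM in WT (median 63.6). It fell by 1.02 on the log2 scale in HO against WT (limma adjusted p = 2.3e-07) and was 0.64 ± 0.15 higher in DHO than in HO. Slc1a4, which exchanges alanine, serine and cysteine, was higher in DHO than in HO (1.17 ± 0.28, limma adjusted p = 0.00041), with medians of 6.25 FPKM in DHO, 2.46 FPKM in HO and 3.51 FPKM in WT. Slc1a2 and Slc1a3, the glial glutamate carriers, reached at most 0.554 FPKM.

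Of the 8 tested Slc2a carriers, which move hexoses and inositol without sodium, 5 rose and 2 fell in HO against WT. Slc2a1 had 43.8 to 87.8 FPKM in DHO (median 56.5), 54.0 to 161 FPKM in HO (median 74.4) and 32.9 to 60.0 FPKM in WT (median 44.2). The groups overlapped, and its log2 fold changes were 0.87 ± 0.16 in HO against WT and -0.46 ± 0.17 in DHO against HO (limma adjusted p = 2.4e-05 and 0.016). Slc2a3, the high-affinity glucose carrier of neurons and leukocytes, had 0.179 to 4.07 FPKM in DHO (median 0.640), 3.96 to 19.4 FPKM in HO (median 8.48) and 0.459 to 1.08 FPKM in WT (median 0.793). Only DHO 8 among the DHO libraries reached the lower edge of HO, and the log2 fold changes were 2.85 ± 0.27 and -2.75 ± 0.27 (limma adjusted p = 7e-11 and 4e-10). Slc2a6, a lysosomal hexose carrier of myeloid cells, had medians of 0.914 FPKM in DHO, 14.6 FPKM in HO and 0.741 FPKM in WT, with log2 fold changes of 3.32 ± 0.34 and -2.90 ± 0.34 (limma adjusted p = 3.2e-10 and 1e-08).

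The ratio of Slc2a3 to Slc2a1 was 0.00391 to 0.0470 in DHO (median 0.0119), 0.0313 to 0.276 in HO (median 0.102) and 0.00937 to 0.0289 in WT (median 0.0163). Slc2a1 therefore stayed the more abundant of the pair in every library. Slc2a13, the proton-coupled myo-inositol carrier, went the other way, with 1.56 to 6.08 FPKM in DHO (median 3.84), 0.539 to 1.11 FPKM in HO (median 0.839) and 4.17 to 8.28 FPKM in WT (median 5.24). HO did not overlap DHO or WT for this gene, and its log2 fold change was -2.25 ± 0.17 in HO against WT (limma adjusted p = 4.1e-13). Slc2a4, the insulin-responsive carrier of muscle and fat, was called lower in HO against WT by a narrow margin (-0.68 ± 0.30, limma adjusted p = 0.046) and lost this call on leaving out any one of 12 libraries. Smooth muscle markers were lower as well in HO, 5 of 5, with sums of 475 to 2923 FPKM in DHO, 508 to 2137 FPKM in HO and 1728 to 5955 FPKM in WT, and their part in Slc2a4 was not tested.

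Fructose and basolateral glucose carriers were scarce. Slc2a5, the fructose carrier, had 0.0726 to 0.495 FPKM in DHO, 0.0104 to 0.0661 FPKM in HO and 0.378 to 2.80 FPKM in WT, and did not reach the level for testing. Slc2a2, the basolateral glucose carrier of the small intestine and liver, was listed at 0 in 7 DHO, 10 HO and 4 WT libraries and never passed 0.0504 FPKM. Slc2a8, Slc2a9 and Slc2a10 were tested with smaller values, from -0.47 to 0.81 on the log2 scale in HO against WT.

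In the monocarboxylate family Slc16a, MCT1 fell and MCT4 rose in HO. Slc16a1 (MCT1, chromosome 3: 104638664 to 104658462), which moves butyrate, lactate and ketone bodies with protons, had 40.3 to 93.3 FPKM in DHO (median 65.7), 33.0 to 66.7 FPKM in HO (median 54.9) and 83.9 to 112 FPKM in WT (median 93.8). HO lay below WT without overlap, at a log2 fold change of -0.86 ± 0.12 (limma adjusted p = 2.8e-07), and DHO also fell against WT (-0.53 ± 0.12, limma adjusted p = 0.0042). The call of Slc16a1 in DHO against HO (0.33 ± 0.13, limma adjusted p = 0.023) was lost without HO 9, DHO 3 or DHO 4, at 0.26 to 0.28, and with library medians centred, at 0.25. Slc16a3 (MCT4, chromosome 11: 120948484 to 120959000), which exports lactate from glycolytic cells, had 1.39 to 21.2 FPKM in DHO (median 3.08), 29.5 to 111 FPKM in HO (median 55.5) and 1.36 to 6.24 FPKM in WT (median 3.12). HO lay above every library of DHO and WT, with log2 fold changes of 4.06 ± 0.34 in HO against WT and -3.71 ± 0.35 in DHO against HO (limma adjusted p = 6.9e-12 and 1.4e-10). The ratio of Slc16a3 to Slc16a1 was 0.0216 to 0.427 in DHO (median 0.0363), 0.583 to 1.95 in HO (median 1.06) and 0.0141 to 0.0676 in WT (median 0.0332). MCT4 thus reached or passed MCT1 in part of the HO libraries and in no library of DHO or WT, and the 2 highest DHO ratios, 0.427 and 0.298, were those of DHO 8 and DHO 9.

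**Figure D4:**
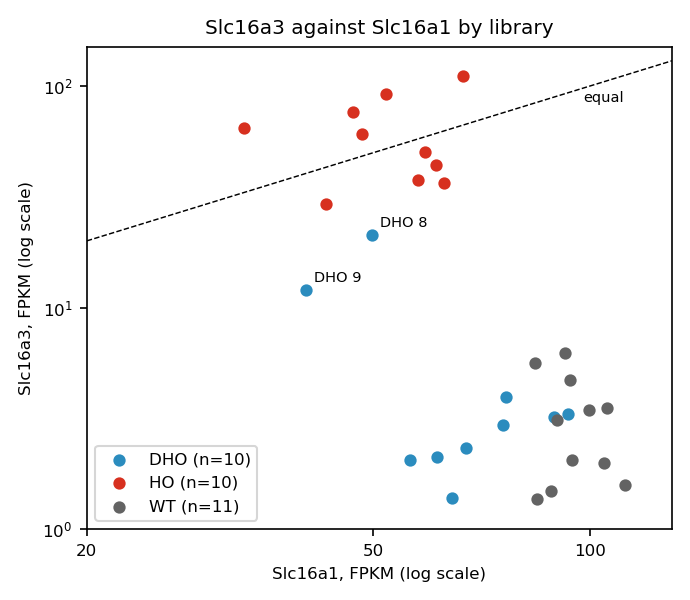
Slc16a3 against Slc16a1 in each library, both in FPKM on log scales, with a dashed line where they are equal. HO libraries lie near the line (ratios 0.583 to 1.95), WT libraries far below it (0.0141 to 0.0676), and DHO 8 and DHO 9 lie between them and the other DHO libraries.

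The promoters of this pair are shown because the core letters of the hypoxia response element, ACGTG on either strand, occur in both. Windows of 250 bases before to 50 after the start come from RefSeq on GRCm38.p6, found for 73 of the 101 carriers, and capitals mark the matches. ACGTG was found in 19.6% of 32851 promoters and in 28 of the 96 windows of carriers (29.2%). The palindrome CACGTG, which contains ACGTG on both strands, was found in 7.15% of promoters and in 12 of the 96 (12.5%). A gene can have several windows. The matches are descriptions of letters and not of factor binding. Slc16a3 (chr11:120948817-120949116, plus strand), whose RefSeq start lies 583 bases inside the gene interval given above, has matches starting at -27 and -14 from the start, and Slc16a1 (chr3:104638414-104638713, plus strand) has 1 palindrome starting at -200 and 1 ACGTG at 21.
Slc16a3: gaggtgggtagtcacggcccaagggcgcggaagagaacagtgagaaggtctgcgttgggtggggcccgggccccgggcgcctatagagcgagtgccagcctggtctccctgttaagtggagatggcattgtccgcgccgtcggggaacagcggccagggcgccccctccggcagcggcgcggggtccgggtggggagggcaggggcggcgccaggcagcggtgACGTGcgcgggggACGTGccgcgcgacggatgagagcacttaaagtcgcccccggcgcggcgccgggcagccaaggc
Slc16a1: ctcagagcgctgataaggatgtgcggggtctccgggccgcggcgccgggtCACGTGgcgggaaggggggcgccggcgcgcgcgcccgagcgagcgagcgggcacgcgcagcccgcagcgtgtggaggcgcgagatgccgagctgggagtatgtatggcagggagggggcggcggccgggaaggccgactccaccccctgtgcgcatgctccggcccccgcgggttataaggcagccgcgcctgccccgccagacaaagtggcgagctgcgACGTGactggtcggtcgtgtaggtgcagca

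Further Slc16a members fell in HO against WT. Slc16a5, whose substrates are poorly defined, had 2.49 to 9.13 FPKM in DHO (median 6.36), 0 to 3.38 FPKM in HO (median 0.0320) and 3.81 to 14.1 FPKM in WT (median 7.65), at a log2 fold change of -3.65 ± 0.28 in HO against WT (limma adjusted p = 1.2e-12). The creatine carrier Slc16a12 had medians of 2.52 FPKM in DHO, 0.230 FPKM in HO and 3.43 FPKM in WT, at -2.45 ± 0.22 in HO against WT (limma adjusted p = 2e-11). Slc16a9, a carnitine carrier, Slc16a11 and Slc16a13 had log2 fold changes of -1.32, -1.93 and -0.81 in HO against WT. The call of Slc16a9 in DHO against HO (0.54 ± 0.22, limma adjusted p = 0.032) was lost on leaving out any one of 8 libraries, HO 2 among them.

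Other Slc16a members rose in HO. Slc16a6, a ketone body carrier of liver in zebrafish, had medians of 1.05 FPKM in DHO, 4.07 FPKM in HO and 0.647 FPKM in WT, with a log2 fold change of 1.99 ± 0.22 in HO against WT (limma adjusted p = 2e-09). Slc16a10, which carries aromatic amino acids, rose by 1.30 ± 0.17 (limma adjusted p = 7.9e-08). Slc16a7 (MCT2) stayed at 0.199 to 0.605 FPKM and was not tested.

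Among the exchangers of cationic, large neutral and acidic amino acids, the heavy chain and several of its light chains were higher in HO. Slc3a2 (4F2hc), the heavy chain that carries them to the membrane, had 6.06 to 13.3 FPKM in DHO (median 7.33), 17.6 to 40.3 FPKM in HO (median 24.9) and 5.37 to 7.86 FPKM in WT (median 6.99). HO lay above every other library, with log2 fold changes of 1.86 ± 0.13 in HO against WT and -1.64 ± 0.13 in DHO against HO (limma adjusted p = 8.4e-14 and 3.9e-12). Slc7a11 (xCT), the cystine-glutamate exchanger that feeds glutathione synthesis, had 0.294 to 9.12 FPKM in DHO (median 0.630), 9.92 to 47.4 FPKM in HO (median 24.4) and 0.155 to 0.442 FPKM in WT (median 0.281). HO lay above every DHO and WT library, although DHO 8 came within 1 FPKM of the lowest HO library, and the log2 fold changes were 4.83 ± 0.35 and -3.92 ± 0.36 (limma adjusted p = 3.4e-13 and 7.9e-11).

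The Slc7a11 promoter is printed because Atf4, whose protein acts through C/EBP-ATF elements, and other genes of the amino acid response were also higher in HO. The letters TGATGNAA, searched on both strands, were found in 3.97% of 32851 promoters and in 5 of the 96 windows of carriers (5.21%). These windows belong to Slc15a5, Slc1a4, Slc7a11 and Slc7a7. Slc1a4 (-0.56 ± 0.27) and Slc7a7 (-0.13 ± 0.14) did not pass in HO against WT, and Slc15a5 was too low for the test. A link between these letters and the level of any carrier was not tested. Slc7a11 (GRCm38.p6 chr3:50443564-50443863, minus strand, RefSeq), whose start lies 55474 bases inside the gene's outer edge, holds 2 matches, in capitals, starting at -66 and, on the other strand, at -47. No match in a window says only that these letters are not there.
Slc7a11: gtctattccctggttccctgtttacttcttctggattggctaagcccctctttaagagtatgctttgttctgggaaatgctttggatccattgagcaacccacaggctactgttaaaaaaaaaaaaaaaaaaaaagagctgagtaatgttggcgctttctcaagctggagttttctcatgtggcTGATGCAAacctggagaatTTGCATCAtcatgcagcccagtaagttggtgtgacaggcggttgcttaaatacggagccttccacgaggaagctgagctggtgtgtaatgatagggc

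The light chains did not move as a block. Slc7a8 (LAT2) had 1.27 to 4.01 FPKM in DHO (median 1.94), 3.73 to 10.9 FPKM in HO (median 7.10) and 1.29 to 2.57 FPKM in WT (median 1.96), at 1.69 ± 0.15 in HO against WT and -1.61 ± 0.15 in DHO against HO (limma adjusted p = 1.9e-11 and 1.5e-10). Slc7a5 (LAT1), which imports leucine, had 3.70 to 19 FPKM in DHO (median 5.74), 4.64 to 18.9 FPKM in HO (median 9.89) and 2.13 to 4.61 FPKM in WT (median 2.90). Its log2 fold changes were 1.51 ± 0.23 in HO against WT and 1.08 ± 0.23 in DHO against WT (limma adjusted p = 7.3e-07 and 0.0023), and DHO against HO did not pass (-0.43 ± 0.23). The ratio of Slc7a5 to Slc7a8 was 1.89 to 6.90 in DHO (median 3.40), 0.689 to 5.06 in HO (median 1.14) and 0.898 to 3.25 in WT (median 1.47).

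Light chains of system y+L, which export arginine and lysine against neutral amino acids, differed from each other. Slc7a6 rose in HO against WT (1.18 ± 0.13, limma adjusted p = 1.1e-09) and in DHO against WT (0.53 ± 0.13, limma adjusted p = 0.0053), with medians of 1.07 FPKM in DHO, 2.19 FPKM in HO and 0.669 FPKM in WT; a gene on its opposite strand, Slc7a6os, is listed apart, and without strand in the counting their reads cannot be told apart. Slc7a7 was highest in DHO, with 9.39 to 15.5 FPKM in DHO (median 14), 4.83 to 13.2 FPKM in HO (median 8.45) and 7.00 to 13 FPKM in WT (median 9.04). It passed in DHO against HO (0.58 ± 0.14) and DHO against WT (0.45 ± 0.14), at limma adjusted p = 0.0007 and 0.023, and its value in HO against WT was -0.13 ± 0.14.

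Cationic amino acid carriers that need no heavy chain also split. Slc7a2 (CAT2), which supplies arginine to activated macrophages, had 0.120 to 2.81 FPKM in DHO (median 0.333), 3.12 to 31.9 FPKM in HO (median 10.3) and 0.151 to 0.664 FPKM in WT (median 0.503). HO lay above every other library, at 3.60 ± 0.31 in HO against WT and -3.54 ± 0.32 in DHO against HO (limma adjusted p = 1.2e-11 and 5.5e-11). Slc7a1 (CAT1), the widely expressed one, did not pass in HO against WT (0.02 ± 0.18) and was higher in DHO than in HO (0.65 ± 0.19, limma adjusted p = 0.0028) and than in WT (0.67 ± 0.18, limma adjusted p = 0.011). DHO 7, DHO 8 and DHO 9 had 9.80, 12.9 and 10.9 FPKM of Slc7a1, and the other DHO libraries had at most 6.53 FPKM. Its call in DHO against HO was lost in the libraries low in Gm15564 alone. Slc7a4, without a known substrate, was lower in HO against WT by a log2 fold change of -1.56.

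The luminal pair for cystine and dibasic amino acids had HO medians below those of WT, while HO 2 stood above every WT library. Slc7a9, the light chain, had 0.466 to 5.67 FPKM in DHO (median 2.0), 0 to 6.06 FPKM in HO (median 0.0110) and 0.877 to 2.91 FPKM in WT (median 1.77), at -1.68 ± 0.36 in HO against WT (limma adjusted p = 0.00011). It was listed at 0 in 5 HO libraries, while HO 2 had the highest value of any library. Its heavy chain Slc3a1 (rBAT), too low for the test, had 0.0731 to 2.81 FPKM in DHO (median 0.395), 0 to 10.5 FPKM in HO (median 0.0474) and 0.130 to 1.17 FPKM in WT (median 0.446). HO 2 was again the highest, at 10.5 FPKM.

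All 3 facilitative carriers of the Slc43a family were higher in HO than in WT. Slc43a2 (LAT4) had 1.13 to 4.07 FPKM in DHO (median 1.29), 7.66 to 24.2 FPKM in HO (median 14.6) and 0.963 to 1.63 FPKM in WT (median 1.19). HO overlapped neither DHO nor WT, and its log2 fold changes were 3.13 ± 0.18 and -2.82 ± 0.19 (limma adjusted p = 4.6e-15 and 1.5e-13). Slc43a3, which carries purine nucleobases, had 4.43 to 25.1 FPKM in DHO (median 7.88), 39.5 to 62.8 FPKM in HO (median 46.3) and 6.11 to 10.1 FPKM in WT (median 8.30), with log2 fold changes of 2.53 ± 0.19 and -2.42 ± 0.19 (limma adjusted p = 6.2e-13 and 5.6e-12). Slc43a1 (LAT3) moved little, with a log2 fold change of 0.35 ± 0.12 in HO against WT (limma adjusted p = 0.012). This call was lost in the libraries low in Gm15564 alone and in the high ones alone. Its level was near the limit for testing, with at most 0.929 FPKM in WT.

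The Slc38a carriers, several of which serve most cells, changed by smaller amounts. Slc38a2, the adaptive system A carrier of small neutral amino acids, had 22.6 to 52.3 FPKM in DHO (median 32.5), 33.2 to 61.7 FPKM in HO (median 43.5) and 24.9 to 44.6 FPKM in WT (median 30.8), at 0.46 ± 0.13 in HO against WT (limma adjusted p = 0.0027). Slc38a1 did not pass in HO against WT (-0.23 ± 0.11) and was 0.44 ± 0.11 higher in DHO than in HO (limma adjusted p = 0.00082). Slc38a7, a glutamine exporter of lysosomes, had medians of 4.19 FPKM in DHO, 8.82 FPKM in HO and 4.13 FPKM in WT, at 0.94 ± 0.12 in HO against WT (limma adjusted p = 2.4e-08). Slc38a10 passed in no comparison, and its values in all 31 libraries lay between 15.5 and 26.3 FPKM. The lysosomal arginine sensor Slc38a9 was too low for the test, with 0.271 to 0.954 FPKM in DHO, 0.734 to 1.61 FPKM in HO and 0.302 to 0.594 FPKM in WT; HO lay above all WT libraries. Slc38a3, Slc38a4 and Slc38a5, carriers of liver and other organs, stayed under 1 FPKM.

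The 2 tested members of the Slc36a family moved in opposite directions. Slc36a1 (PAT1), which takes up proline, glycine and alanine, had 6.33 to 33.3 FPKM in DHO (median 20.2), 7.43 to 11.4 FPKM in HO (median 9.17) and 14.2 to 54.4 FPKM in WT (median 36.5). Its log2 fold changes were -1.69 ± 0.26 in HO against WT, 0.89 ± 0.26 in DHO against HO and -0.81 ± 0.26 in DHO against WT (limma adjusted p = 8e-07, 0.0039 and 0.026), and an antisense gene, Slc36a1os, is listed beside it. The call of Slc36a1 in DHO against WT was lost without DHO 8 or without DHO 9. Slc36a4, a high-affinity carrier of proline and tryptophan, had 1.30 to 4.51 FPKM in DHO (median 1.64), 4.26 to 8.56 FPKM in HO (median 7.28) and 1.45 to 2.82 FPKM in WT (median 2.10), at 1.5 ± 0.15 in HO against WT (limma adjusted p = 4.3e-10). HO lay above every WT library for this gene and overlapped DHO only through the highest DHO library.

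In 3 libraries the epithelial markers were near the WT level while several luminal carriers were low. HO 2, with an epithelial mean of 8.23 on the log2 scale and a summed FPKM of 3694 over 6 colonocyte markers (2369 to 4963 in WT), had 0.395 FPKM of Slc15a1, 13.3 FPKM of Slc5a8, 9.81 FPKM of Slc5a1, 31 FPKM of Slc6a14 and 0.103 FPKM of Slc6a4. Each of these is below the lowest WT library, at 34.9, 46.0, 41.1, 81.2 and 7.30 FPKM. Other luminal carriers were not low in HO 2, where Slc7a9 (6.06 FPKM) and Slc3a1 (10.5 FPKM) were above every other library and Slc5a9 had 1.87 FPKM, inside the WT range of 0.628 to 2.31 FPKM. DHO 8 and DHO 9 had 3.0 and 4.39 FPKM of Slc5a8, 5.65 and 5.88 FPKM of Slc5a1, 15.1 and 27.7 FPKM of Slc6a14 and 2.84 and 8.42 FPKM of Slc15a1. The lowest of the other 8 DHO libraries had 30.2, 28.7, 91.2 and 14.7 FPKM of these genes. Slc5a9, at 2.03 FPKM in DHO 8 and 2.01 FPKM in DHO 9, was inside the WT range. In DHO 8 and DHO 9 the colonocyte markers were also low, with sums of 194 and 425 FPKM against at least 1221 FPKM in the other DHO libraries, and neutrophil markers were present with sums of 3923 and 707 FPKM.

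The same 3 libraries carried the transcripts that were high in HO. Slc15a3 had 63.0 and 36.9 FPKM in DHO 8 and DHO 9 and 41.7 FPKM in HO 2, Slc7a11 had 9.12 and 4.62 FPKM and 11.5 FPKM, and Slc16a3 had 21.2 and 12 FPKM and 37.7 FPKM, in that order of libraries. The other 8 DHO libraries had at most 4.77 FPKM of Slc15a3, 0.841 FPKM of Slc7a11 and 3.93 FPKM of Slc16a3. Without HO 2, the HO against WT log2 fold changes were -6.91 for Slc15a1, -6.95 for Slc5a8, 5.50 for Slc15a3 and 4.94 for Slc7a11, so they did not rest on this library. The part of neutrophils and of other cells in the 3 libraries was not tested.

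**Figure D5:**
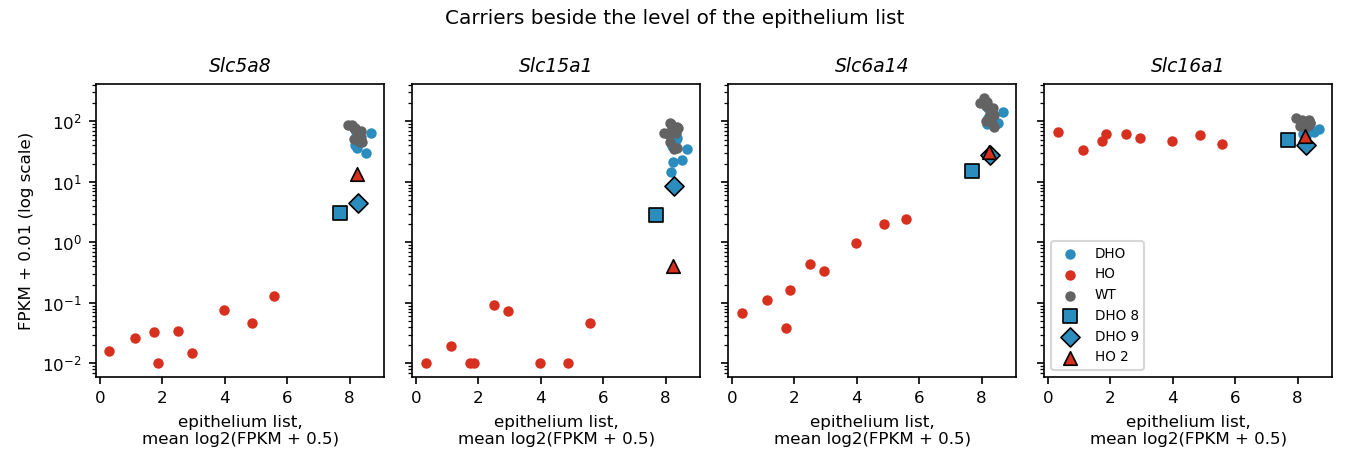
FPKM + 0.01 on a log scale of Slc5a8, Slc15a1, Slc6a14 and Slc16a1 against the mean log2(FPKM + 0.5) of 14 epithelial markers in each DHO, HO and WT library. HO 2 (triangle), DHO 8 (square) and DHO 9 (diamond) lie at epithelial means of 8.23, 7.68 and 8.27, near the WT range of 7.95 to 8.40, but below the WT libraries for Slc5a8, Slc15a1 and Slc6a14; Slc16a1 stays between 33.0 and 66.7 FPKM across the HO libraries.

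The calls in DHO against WT depended on which libraries were kept. The 6 carriers called higher were Slc15a3 (1.59 ± 0.45), Slc7a5 (1.08 ± 0.23), Slc16a6 (0.81 ± 0.22), Slc7a1 (0.67 ± 0.18), Slc7a6 (0.53 ± 0.13) and Slc7a7 (0.45 ± 0.14), as log2 fold changes with SE. The 9 called lower were Slc15a1 (-1.46 ± 0.33), Slc6a4 (-1.31 ± 0.33), Slc5a6 (-0.95 ± 0.27), Slc16a11 (-0.88 ± 0.25), Slc36a1 (-0.81 ± 0.26), Slc16a9 (-0.78 ± 0.22), Slc16a12 (-0.70 ± 0.22), Slc2a13 (-0.67 ± 0.17) and Slc16a1 (-0.53 ± 0.12). Without DHO 8 and DHO 9, 8 carriers passed (limma), among them Slc15a1 at -0.94, Slc6a4 at -0.77, Slc16a1 at -0.40, Slc7a5 at 0.77 and Slc15a3 at 0.78, while 10.2% of all genes did. The calls of Slc7a1, Slc7a7, Slc5a6, Slc16a9, Slc16a11, Slc16a12 and Slc36a1 were lost, 7 of the 15. With HO 2 also left out, which changes the spread shared by all groups, 14 carriers passed (8 higher and 6 lower), beside 13.6% of all genes. Without HO 2 alone, 19 did (8 higher and 11 lower), beside 23.7%. In the libraries low in Gm15564 alone no carrier passed in DHO against WT (limma, 13 at an unadjusted p under 0.05), beside 0.531% of all genes, and in the high ones 31 did, beside 39.8%.

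Most differences in HO against WT and DHO against HO were called on both sides of the Gm15564 division. In HO against WT, the low libraries gave 23 higher and 22 lower carriers, and the high ones gave 21 and 24, beside 68.5% and 67.7% of all genes called in either direction. In DHO against HO they gave 24 and 23 in the low libraries, and 19 and 17 in the high ones, beside 69.9% and 60% of all genes. In the high ones 11 carriers of smaller change lost their call (Slc16a1, Slc16a9, Slc16a11, Slc16a13, Slc1a5, Slc2a1, Slc2a10, Slc36a1, Slc38a2, Slc6a6 and Slc7a6). In the low ones only Slc7a1 lost its call. Slc5a8 had log2 fold changes in HO against WT of -5.76 in the low set and -7.25 in the high set, and Slc16a3 of 3.77 and 4.42. In DHO against HO the values were 5.60 and 4.73 for Slc5a8, and -4.07 and -3.19 for Slc16a3.

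Genes that partner or power the carriers were also counted, as were those of 4 related lists, beside 33% of all genes higher and 38.4% lower in HO than in WT, 39% and 29.7% in DHO against HO, and 12.5% and 8.7% in DHO against WT. Emb, which escorts monocarboxylate carriers to the membrane, had 1.99 to 44.9 FPKM in DHO (median 3.04), 43.9 to 204 FPKM in HO (median 114) and 1.41 to 2.55 FPKM in WT (median 2.07), at 5.48 ± 0.37 in HO against WT and -4.39 ± 0.37 in DHO against HO (limma). Bsg, the usual escort of MCT1 and MCT4, named here after its values were seen, had medians of 422 FPKM in DHO, 253 FPKM in HO and 409 FPKM in WT, at -0.70 ± 0.17 in HO against WT (limma adjusted p = 0.00042). Of the sodium pump subunits, the beta chain Atp1b1 fell and the beta chain Atp1b3 rose in HO. Atp1b1 had medians of 514 FPKM in DHO, 17.9 FPKM in HO and 622 FPKM in WT, at -4.73 ± 0.36, and Atp1b3 had medians of 34.3 FPKM in DHO, 117 FPKM in HO and 31 FPKM in WT, at 1.88 ± 0.14. Of the 11 tested genes of this list, 2 were higher and 7 lower in HO than in WT (median -0.70), 6 higher and 3 lower in DHO than in HO (median 0.48), and 1 higher and 2 lower in DHO than in WT.

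Glycolysis and amino acid response genes were counted beside the carriers. Of 17 glycolysis and lactate genes, 9 were higher and 4 lower in HO than in WT (limma, median 0.51), 5 higher and 8 lower in DHO than in HO, and 3 higher and 1 lower in DHO than in WT. Pfkfb3, which makes an activator of glycolysis, had medians of 2.47 FPKM in DHO, 68.1 FPKM in HO and 1.73 FPKM in WT (4.97 ± 0.37 in HO against WT), and the leukocyte hexokinase Hk3 changed by 4.78 ± 0.39. Pkm, pyruvate kinase, rose by 1.35 ± 0.13, and Txnip, an inhibitor of glucose uptake, fell by 1.57 on the log2 scale. Of 15 amino acid response genes, 11 were higher in HO than in WT and 4 did not pass (median 0.93), 1 higher and 7 lower in DHO than in HO, and 5 higher in DHO than in WT. Their median FPKM in DHO, HO and WT was 112, 173 and 91.1 for the transcription factor Atf4, 24.9, 339 and 19.4 for Cebpb, 3.01, 7.40 and 2.96 for the leucine sensor Sesn2 and 0.281, 3.04 and 0.322 for Trib3, a target of Atf4.

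Glutathione and brush border genes were counted in the same way. Of 13 glutamine, glutamate and glutathione genes, 7 were higher and 3 lower in HO than in WT (limma, median 0.32), 2 higher and 7 lower in DHO than in HO, and 3 higher and 2 lower in DHO than in WT. Glutathione reductase (Gsr) rose by 1.70 ± 0.11 and Gpx1 by 1.06 ± 0.14 in HO against WT, while glutathione synthetase (Gss) changed by -2.21 ± 0.28. The mitochondrial aminotransferase Got2 changed by 0.45 ± 0.07. Of 11 brush border peptidases and disaccharidases, 6 were tested, with 2 higher and 3 lower in HO than in WT, 3 higher and 2 lower in DHO than in HO, and 1 lower in DHO than in WT. Mep1a, Mep1b and Dpp4, which release small peptides and amino acids for the carriers, changed by -7.19 ± 0.68, -4.60 ± 0.55 and -2.54 ± 0.15 in HO against WT, and Anpep, which neutrophils and macrophages also express, by 2.03 ± 0.27.

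Of the 46 carriers not tested, 10 reached 1 FPKM in some library. These were Slc1a7, Slc2a5, Slc3a1, Slc5a7, Slc6a12, Slc7a14, Slc36a2, Slc38a6, Slc38a9 and Slc38a11. Slc36a2, a proline and glycine carrier, had 0 to 0.750 FPKM in DHO, 0.342 to 3.05 FPKM in HO and 0 to 0.262 FPKM in WT. Slc1a7, a glutamate carrier, had at most 0.214 FPKM in DHO, 1.23 FPKM in HO and 0.140 FPKM in WT. Another 11 of the 46 were listed at 0 in most libraries. Symbols that end in a letter, such as Slc6a20a, are outside the rule and were not counted.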

How the data were processed

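RNA sequencing covered 31 mouse colon libraries. Per the labels' protocols, RNA was taken up in TRIzol and libraries were built from total RNA with a VAHTS Universal V6 kit. fastp, HISAT2 and HTSeq are named in the submitters' processing notes, with mm10 as the build. Software versions, gene annotation and strand setting: not given in the sources used here. Values in FPKM, as deposited by the authors, cover 27623 genes; no header names the unit, which was read from the values. Total fragments per library (30800000 to 40400000) were inferred from the smallest FPKM steps. No pair of libraries was identical.

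A linear model over all 31 libraries was fitted in limma 3.58.1 (R 4.3.3) to log2(FPKM + 0.5), with a variance trend and robust moderation. It took genes that reached 1 FPKM in 10 or more libraries. P-values are two-sided and were adjusted by Benjamini-Hochberg over 12812 genes per comparison; an adjusted p under 0.05 was called, whatever the fold change. The fit was tested on simulated data, drawn as independent normal log2 values with the means and spreads of WT in all groups. That test therefore does not cover the spread within HO and DHO or the Gm15564 division. Fold changes understate genes near 0. Libraries are named by group and order of listing, which pairs none between groups. Figures and summaries used Python 3.11.15 with pandas 2.3.3 and matplotlib 3.10.9. Positions and promoters are from RefSeq tables of GRCm38.p6, in which all 101 carriers were found by symbol.

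Named carriers are, per family and comparison, the 3 called members with the largest change plus carriers with textbook roles; others are named to account for them or for single libraries. Of the lists around the carriers, the 4 genes with the smallest p in HO against WT are named. The members, lists and markers were chosen with earlier results of these data known. Alternatives were other pseudocounts, filters, scalings, moderation, samples in the fit, the Gm15564 division and each library left out. The interaction of the division with each comparison was added after seeing the data. Not every gene picked by this rule is reported here.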

Additional observations from a re-analysis of the deposited data

Results flagged for a closer look

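HO 2 lay far from the other HO libraries for 7 carriers by Dixon's test at the 95% level: Slc5a8 (13.3 FPKM), Slc6a14 (31), Slc15a1 (0.395), Slc16a5 (3.38), Slc7a9 (6.06), Slc1a4 (11.6) and Slc6a9 (10.5). An eighth, Slc16a10, was high in DHO 8 (3.02 FPKM). Of 110 groups of 10 tested, all from DHO and HO, 8 stood out (7.27%). The level of the test is about 1 in 20, but 7 of the 8 came from HO 2. Carriers within 1 library are not independent, so the share cannot be set against that level. WT was not tested in this way, and the share over all genes was not computed. HO 2 had an epithelial mean of 8.23 on the log2 scale, and the part of its epithelium in these values was not tested.

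The difference DHO against HO differed between the libraries high and low in Gm15564 for 5 carriers (Slc15a3, Slc16a13, Slc16a6, Slc6a4 and Slc7a5; limma interaction, adjusted p of 0.05, 21 at an unadjusted p under 0.05), and 4.43% of all genes did. The difference DHO against WT did so for 10 carriers (28 unadjusted), and 9.80% of all genes did. Without DHO 8 and DHO 9 together, neither comparison gave a carrier (5 and 6 unadjusted), beside 0% of all genes in both. Without DHO 8 alone neither did (11 and 20 unadjusted), beside 0.0702% and 0.00781% of all genes. Nor did either without DHO 9 alone (12 and 21 unadjusted), beside 0.0624% and 0.0234%. How many of all genes had such an unadjusted p was not computed. Without DHO 7 the counts were 10 and 20, beside 10.7% and 16.1% of all genes, and without DHO 10 they were 18 and 26, beside 24.1% and 29.6%. For HO against WT the interaction called no carrier and 0 of 12812 genes, and no carrier had an unadjusted p under 0.05 (limma).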

How the results depend on the processing

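No called carrier changed direction under any alternative listed for it. In HO against WT, 4 of 46 called carriers lost their call under some alternative (Slc2a4, Slc2a10, Slc15a4 and Slc43a1), and in DHO against HO 12 of 46 did, 11 of them in the libraries high in Gm15564 alone. Leaving out each library in turn cost 2 called carriers their call in each comparison (Slc2a4 and Slc15a4; Slc16a1 and Slc16a9; Slc16a12 and Slc36a1) and moved no count by more than 1.5 times. With no filter on low values, 34 carriers were lower in DHO than in HO instead of 21, since all 101 were then tested. In either direction 62 carriers were called in that setting, beside 43.7% of 27623 genes. HO against WT gave 36 higher and 29 lower carriers there, beside 47.9% of these genes called in either direction. With the Gm15564 division as a term in the fit, 48 carriers were called in HO against WT and 48 in DHO against HO. Of all genes, 78.1% and 76.1% were called with this term, and 35.5% in DHO against WT. In DHO against WT the 15 called carriers (6 higher and 9 lower) became 8 (4 and 4) without DHO 8 and DHO 9, 14 (8 and 6) with HO 2 also left out, and 19 (8 and 11) without HO 2 alone; 10.2%, 13.6% and 23.7% of all genes were called in these settings. In the libraries low in Gm15564 alone they became 0 (0 and 0; 13 at an unadjusted p under 0.05, limma), and in the high ones 31 (12 and 19). No paired analysis was possible because the labels give no replicate numbers that pair libraries between groups. The precision of carriers near 0 FPKM is limited by depth, and no counting interval was computed because the file gives no counts.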
